A study of Mus musculus with 12 samples.

Results

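The genes described here lie on either side of Pdcd1, the gene for the inhibitory receptor PD-1, on mouse chromosome 1. Of the 181 rows of the count table that start within about 10 Mb of Pdcd1 (mm10, a window of 20.1 Mb), Pdcd1 itself and 3 rows whose names start with Nduf, Psm or Eif were set aside, and 103 rows had fewer than 10 counts in all libraries or reached 10 counts in 1 library only. The remaining 74 genes, of 25078 in the table, were kept: 67 on the lower-coordinate side of Pdcd1 and 7 on the higher side. Distances are from the nearest edge of a gene to the nearest edge of Pdcd1.

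Donor T cells came from C57BL/6 mice, were transplanted into BALB/c mice after a lethal dose of radiation, and were sorted from the livers as CD4+ or CD8+ cells on day 6. Bulk RNA-seq was made of 12 libraries, 2 for each of 3 donor genotypes in each T cell subset, and each library pooled the cells of 3 recipients. WT donors carried neither deletion. STAT3-/- donors were Stat3 fl/fl mice with Cre under the CD4 promoter, which deletes Stat3 in T cells and leaves the reads of undeleted parts or cells in a bulk library. STAT3-/-PD-1-/- donors carried the same Stat3 deletion and lacked PD-1 in every cell from the germline, so these libraries differ from STAT3-/- libraries in the Pdcd1 allele. The labels give the recipients of every library as WT, and all groups shared the host strain, the irradiation and the transplant. The sources used here give neither the strain in which the Pdcd1 allele was made nor the number of backcrosses, the donors' ages are not given there either, and no DNA sequence was analysed: the loss of PD-1 and any other difference in chromosome 1 that came with the allele cannot be told apart. Library totals were 22273776 to 24016266 counts in CD4+ cells and 21676125 to 24551477 in CD8+ cells. The study states that the CD8+ cells came from the livers that gave the CD4+ cells, so the subsets share recipients and are not independent samples, and the labels do not say which experiment a replicate came from. The study describes its liver data, RNA-seq among them, as combined from replicate experiments, and the library numbers in the labels run in separate series for replicates 1 and 2, but no source ties a library to an experiment. The p-values measure the spread between these libraries. Counts or shares from fits with the replicate number as a block are given for each comparison of genotypes. The flanking genes that the block added are named for STAT3-/- against WT only.

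PD-1 is induced when T cells are activated, binds PD-L1 and PD-L2 on other cells and lowers T cell receptor signalling. Its chromosomal neighbours do not form a pathway: they include nuclear body proteins of the SP100 family, the inositol phosphatase SHIP1 (Inpp5d), receptors such as Gpr55, metabolic enzymes, ubiquitin and COP9 signalosome genes and many housekeeping genes. Genes next to a targeted gene are inherited together with it.

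The targeted genes were lower where the labels place the deletions. Pdcd1 had 242.3 and 234.5 CPM (counts per library size, scaled by the trimmed mean of M values) in CD4+ WT libraries, 257.3 and 322.8 in STAT3-/- and 55.06 and 26.31 in STAT3-/-PD-1-/- libraries. In CD8+ cells Pdcd1 had 375.2 and 309.7 CPM in WT, 422 and 457.6 in STAT3-/- and 93.95 and 66.52 in STAT3-/-PD-1-/- libraries. Both STAT3-/-PD-1-/- libraries of each subset were thus below all others, with reads left in each. Against STAT3-/-, the log2 fold change of Pdcd1 was -2.83 ± 0.33 (SE, adjusted p = 0.00724) in CD4+ and -2.45 ± 0.19 (adjusted p = 0.00206) in CD8+ cells (edgeR quasi-likelihood test, Benjamini-Hochberg adjustment over all genes tested, n = 2 libraries per group, as for every adjusted p of the report). Stat3 had 362.2 and 465.6 CPM in CD4+ WT libraries, 137.7 and 164.1 in STAT3-/- and 156.6 and 221.5 in STAT3-/-PD-1-/- libraries. In CD8+ cells Stat3 had 396.2 and 387.2 CPM in WT, 148.1 and 136.5 in STAT3-/- and 154.3 and 238.5 in STAT3-/-PD-1-/- libraries. Replicate 2 of STAT3-/-PD-1-/- thus kept the most Stat3 reads among the libraries with the deletion in each subset. Between STAT3-/- and WT, Stat3 differed by -1.46 ± 0.22 (log2, SE) in CD4+ and -1.46 ± 0.2 in CD8+ cells, with edgeR adjusted p = 0.055 and 0.108, short of the threshold of 0.05.

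The question of the first comparison was which flanking genes differed once the Pdcd1 deletion was added to the Stat3 deletion. In CD4+ cells, 18 of the 70 flanking genes that could be tested passed the threshold, 7 higher and 11 lower in STAT3-/-PD-1-/- cells, or 25.7%, where 11.1% of all 11959 genes tested passed (6.05% higher, 5.03% lower). In CD8+ cells, 17 of 69 passed, 7 higher and 10 lower, or 24.6%, where 16.8% of all 12002 genes tested passed (8.76% higher, 8.05% lower). The excess over all genes depended on the model: with the replicate number as a block, 32.9% of the flanking genes and 26% of all genes passed in CD4+ cells, and 30.4% and 24.4% in CD8+ cells, and with DESeq2 31.4% and 17.5%, and 29% and 23.3%. On the rest of chromosome 1 the share was 15.7% in CD4+ and 20.1% in CD8+ cells. The flanking genes did not move one way: their median log2 fold change was -0.04 in CD4+ and -0.03 in CD8+ cells, against -0.01 and 0 over all genes. The median size of the change, without its sign, was 0.42 against 0.34 for all genes in CD4+ cells and 0.34 against 0.33 in CD8+ cells. These counts fell when single libraries were left out, which leaves a group with a single library. The loss of calls does not show how far the fold changes moved. Without STAT3-/-PD-1-/- replicate 1, 2 of the CD4+ and 11 of the CD8+ genes passed, without STAT3-/-PD-1-/- replicate 2, 0 and 0, and without STAT3-/- replicate 2, 10 and 7. Calls over all genes fell in the same fits, to 0.54% and 8.4%, 0% and 0.0163%, and 4.64% and 3.75%.

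The genes called in both subsets numbered 15, all in the same direction. The 6 that rose were Ramp1, Pask, Ppp1r7, Ano7, Hdlbp and Dtymk, and the 9 that fell were Sp110, Sp100, Gpr55, Inpp5d, Arl4c, Rbm44, Scly, D2hgdh and St8sia4. They made up 83.3% of the CD4+ and 88.2% of the CD8+ calls among the flanking genes. Over all genes, 943 were called in both subsets, 72.8% of the CD4+ and 47.8% of the CD8+ calls among genes tested in both. Across the 67 flanking genes tested in both subsets, the log2 fold changes correlated with r = 0.94 and rho = 0.87, against 0.85 and 0.84 over all genes, a description across genes that come from the same recipients. In CD4+ cells alone, Pde6d, Sag and Sh3bp4 passed, and in CD8+ cells alone, Sp140 and Ncl. Of these, Ncl also passed in CD4+ cells under 7 of 12 alternatives, and Pde6d and Sh3bp4 in CD8+ cells under 4 and 3 of 12. The difference between the subsets was itself tested as an interaction. With edgeR no gene passed, among the 73 flanking genes tested or among 12334 genes in all (2 and 443 at an unadjusted p under 0.05). DESeq2 called 0 flanking genes and 0.146% of all genes. With the CD4+ and CD8+ libraries of 1 genotype and replicate number blocked as 1 pool of recipients, a fit added after the data were seen, 0 of the 73 and 0.178% of all genes passed (7 and 1214 at an unadjusted p under 0.05, edgeR). The 2 flanking genes with an unadjusted p under 0.05 were Pask, with a CD8+ minus CD4+ difference of -0.52 ± 0.19 (log2, SE, adjusted p = 1), and Sag, with 1.74 ± 0.69 (adjusted p = 1).

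**Figure D1:**
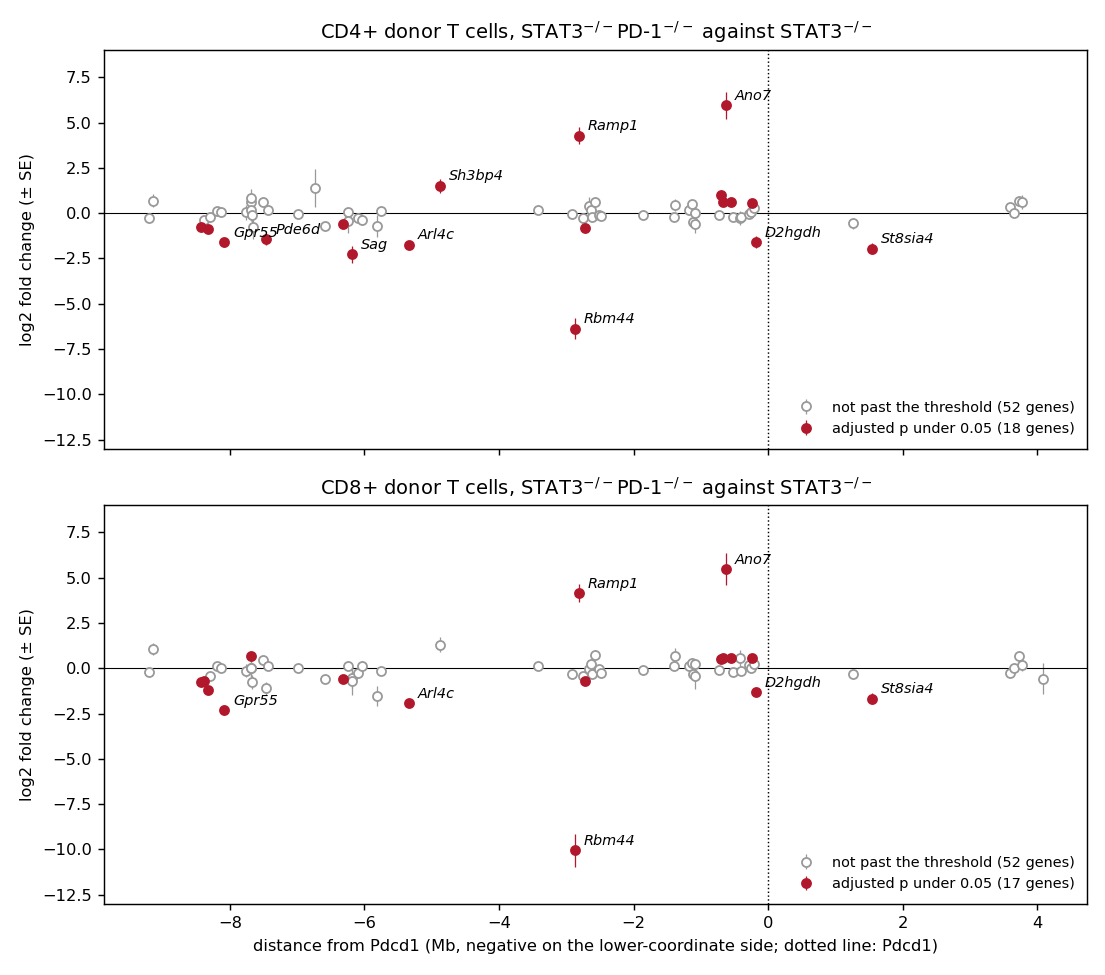
Log2 fold change (± SE) of each flanking gene in STAT3-/-PD-1-/- against STAT3-/- donor T cells, plotted against its distance from Pdcd1 in Mb, for CD4+ cells above and CD8+ cells below. Filled red points passed the adjusted p threshold of 0.05 (18 of 70 and 17 of 69 genes), and the largest changes, of Rbm44, Ramp1 and Ano7, recur in both subsets.

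Rbm44 and Ramp1, next to each other 2.87 and 2.81 Mb from Pdcd1, moved in opposite directions and by the largest steps together with Ano7. Rbm44 (chr1:91145103-91170795, plus strand), an RNA-binding protein known from germ cells, gave 31 and 52 counts in CD4+ WT libraries, 68 and 104 in STAT3-/- and 1 and 1 in STAT3-/-PD-1-/- libraries. In CD8+ cells Rbm44 gave 47 and 102 counts in WT, 113 and 155 in STAT3-/- and 0 and 0 in STAT3-/-PD-1-/- libraries. Rbm44 was thus near or at 0 in all 4 STAT3-/-PD-1-/- libraries and present in all 8 others. The summed CD4+ counts were 93.8-fold lower than in STAT3-/- (95% interval 25.6 to 781, exact, counting error only) and 43.3-fold lower than in WT (11.6 to 363). In CD8+ cells Rbm44 was at least 43.7-fold lower than in STAT3-/- and at least 24-fold lower than in WT, taking 3 counts per library as the most that a count of 0 allows. Among the log2 fold changes against STAT3-/-, that of Rbm44 ranked 2 from the bottom of 11959 genes in CD4+ cells (edgeR adjusted p = 0.00374) and 1 from the bottom of 12002 in CD8+ cells (adjusted p = 0.00389).

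Ramp1 (chr1:91179822-91225196, plus strand) starts 9026 bases after the end of Rbm44 on the same strand. It encodes an accessory protein that forms the receptor for calcitonin gene-related peptide with the calcitonin receptor-like receptor. Ramp1 gave 13 and 16 counts in CD4+ WT libraries, 3 and 2 in STAT3-/- and 55 and 55 in STAT3-/-PD-1-/- libraries. In CD8+ cells it gave 18 and 18 in WT, 3 and 7 in STAT3-/- and 67 and 112 in STAT3-/-PD-1-/- libraries. The groups did not overlap in either subset, with STAT3-/- lowest, WT between and STAT3-/-PD-1-/- highest. Against STAT3-/-, the log2 fold change of Ramp1 was 4.27 ± 0.46 (SE, adjusted p = 0.00658, edgeR) in CD4+ and 4.15 ± 0.48 (adjusted p = 0.00477) in CD8+ cells. Against WT, Ramp1 rose by 1.86 ± 0.36 (adjusted p = 0.0182, edgeR) and 2.32 ± 0.41 (adjusted p = 0.0133).

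Ano7 (chr1:93373896-93404304, plus strand), 0.634 Mb from Pdcd1, encodes a membrane protein of the anoctamin family best known from prostate. Its counts were 1 and 2 in CD4+ WT libraries, 0 and 1 in STAT3-/- and 34 and 50 in STAT3-/-PD-1-/- libraries. In CD8+ cells they were 1 and 1 in WT, 1 and 0 in STAT3-/- and 17 and 38 in STAT3-/-PD-1-/- libraries. Reads of Ano7 were thus almost limited to the 4 STAT3-/-PD-1-/- libraries. Summed over the pair of libraries, Ano7 was 77-fold higher than in STAT3-/- in CD4+ cells (95% interval 13.5 to 3080, exact, counting error only) and 56-fold higher in CD8+ cells (9.65 to 2250), with edgeR adjusted p = 0.00832 and 0.0116. The end of Ano7 lies 1635 bases from that of Hdlbp, which is transcribed toward it from the opposite strand at a far higher level and which also rose. The strand setting of the counting is not given in the sources used here, and how far reads running past the end of Hdlbp entered Ano7 was not tested.

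These 3 genes were low in these cells. Per kilobase of exon, the mean level over all libraries was 0.625 CPM for Rbm44, 0.431 for Ramp1 and 0.127 for Ano7, ranks 56, 60 and 71 of the 74 flanking genes. Genes called at a log2 fold change of at least 4 in either direction numbered 26 in CD4+ and 27 in CD8+ cells. Of these, 8 and 7 lay on chromosome 1, among them Rbm44, Ramp1 and Ano7 in both subsets, although chromosome 1 held 5.75% and 5.77% of the genes tested. The chromosome with the next highest number held 2 in CD4+ and 4 in CD8+ cells. The others on chromosome 1, named after their values were seen, lay outside the flanking window, 13.5 to 63.5 Mb from Pdcd1: Serpinb8, Tfcp2l1, Ctse, Rab7b and Sec16b in CD4+ cells, and Ctse, Rab7b, Igfbp2 and Fam178b in CD8+ cells. Each of them was higher in STAT3-/-PD-1-/- cells.

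The stretches before the start sites of 3 changed genes are shown because the genes share a chromosomal neighbourhood and differ in direction: Ramp1 and Ano7 rose and D2hgdh, the called gene nearest to Pdcd1, fell. Each line gives the 250 bases before the start in RefSeq (GRCm38.p6, plus strand), read from chr1:91179572-91179821, chr1:93373646-93373895 and chr1:93824990-93825239. Capitals mark CG dinucleotides.
Ramp1: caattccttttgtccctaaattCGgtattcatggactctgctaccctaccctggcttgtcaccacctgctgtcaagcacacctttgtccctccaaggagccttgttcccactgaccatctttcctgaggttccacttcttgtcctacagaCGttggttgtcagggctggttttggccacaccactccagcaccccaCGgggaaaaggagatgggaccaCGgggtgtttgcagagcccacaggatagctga
Ano7: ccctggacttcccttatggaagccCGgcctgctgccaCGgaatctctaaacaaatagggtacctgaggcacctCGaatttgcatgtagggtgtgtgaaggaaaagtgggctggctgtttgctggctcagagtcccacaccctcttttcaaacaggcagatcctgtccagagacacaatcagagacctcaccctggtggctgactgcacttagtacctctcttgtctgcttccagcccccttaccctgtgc
D2hgdh: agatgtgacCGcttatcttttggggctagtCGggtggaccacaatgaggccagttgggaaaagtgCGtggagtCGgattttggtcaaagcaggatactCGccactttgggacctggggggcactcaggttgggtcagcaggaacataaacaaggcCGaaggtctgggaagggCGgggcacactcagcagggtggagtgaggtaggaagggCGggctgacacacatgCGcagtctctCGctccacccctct
The stretch of Ramp1 held 4 CG dinucleotides, that of Ano7 3 and that of D2hgdh 10, beside a median of 6 over 32851 RefSeq promoters of the same length. Promoters were matched by symbol for 61 of the 74 genes, and the median was 10 in the 19 called genes with a match and 19 in the other 42. The letters GGGCGG, searched on both strands, occurred 2 times before D2hgdh, and in 32.7% of all promoters. The letters TATAAA and CCAAT, found in 12.4% and 33.8% of all promoters on either strand, occurred in none of the 3 windows.

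Within 1 Mb of Pdcd1, 6 of 13 genes passed in each subset, the same 6, 5 of them higher in STAT3-/-PD-1-/- cells, where 11.1% of all genes passed in CD4+ and 16.8% in CD8+ cells (6.05% and 8.76% higher). The nearest called gene, D2hgdh (chr1:93825240-93852361, 0.186 Mb), which encodes the mitochondrial enzyme that oxidises D-2-hydroxyglutarate, fell. D2hgdh was at 8.041 and 6.121 CPM in CD4+ WT, 10.71 and 10.28 in STAT3-/- and 4.538 and 2.41 in STAT3-/-PD-1-/- libraries. Its CD8+ levels were 9.187 and 8.45 CPM in WT, 12.54 and 12.69 in STAT3-/- and 5.547 and 4.473 in STAT3-/-PD-1-/- libraries. The STAT3-/-PD-1-/- libraries were lowest in both subsets, and the log2 fold change of D2hgdh against STAT3-/- was -1.6 ± 0.33 (SE, adjusted p = 0.0275, edgeR) in CD4+ and -1.33 ± 0.2 (adjusted p = 0.00929) in CD8+ cells. Dtymk, thymidylate kinase, 0.236 Mb from Pdcd1, was at 44.85 and 45.42 CPM in CD4+ WT, 46.43 and 45.01 in STAT3-/- and 68.5 and 65.16 in STAT3-/-PD-1-/- libraries, a rise of 0.55 ± 0.14 (log2, SE, adjusted p = 0.0472, edgeR) whose call was lost under 8 of 12 alternatives (adjusted p up to 0.219). Ing5, a subunit of histone acetyltransferase complexes between Dtymk and D2hgdh, had a log2 fold change of 0.28 ± 0.17 (adjusted p = 0.329, edgeR) in CD4+ and 0.24 ± 0.14 (adjusted p = 0.277) in CD8+ cells and did not pass in either. Neighbours within this stretch therefore differed in direction and in whether they passed.

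Further out in the same stretch, Pask and Ppp1r7, whose bodies are 839 bases apart, and Hdlbp rose together. Pask, a PAS domain kinase, was at 13.8 and 14.82 CPM in CD4+ WT, 14.8 and 17.79 in STAT3-/- and 34.7 and 31.9 in STAT3-/-PD-1-/- libraries. The log2 rise of Pask was 1.03 ± 0.18 (SE, adjusted p = 0.0172, edgeR) in CD4+ and 0.51 ± 0.12 (adjusted p = 0.0356) in CD8+ cells, where the call was lost under 9 of 12 alternatives (adjusted p up to 0.236). Ppp1r7, a regulatory subunit of protein phosphatase 1, rose by 0.62 ± 0.15 (adjusted p = 0.0422) and 0.55 ± 0.11 (adjusted p = 0.0215) in edgeR's test, and its CD4+ call was lost under 7 of 12 alternatives (adjusted p up to 0.268). Hdlbp (vigilin), an RNA-binding protein with many KH domains, was at 331.8 and 331.9 CPM in CD4+ STAT3-/- and 478.3 and 552.2 in STAT3-/-PD-1-/- libraries, and rose by 0.63 ± 0.14 (adjusted p = 0.0345, edgeR) and by 0.56 ± 0.12 (adjusted p = 0.024) in CD8+ cells.

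By distance, the share of called genes was highest nearest to Pdcd1, and the size of the change showed no trend. Under 2 Mb from Pdcd1, 7 of 23 genes (30.4%) passed in each subset, where 11.1% of all genes passed in CD4+ and 16.8% in CD8+ cells. Between 2 and 5 Mb, 4 of 17 (23.5%) passed in CD4+ and 3 of 18 (16.7%) in CD8+ cells, the latter at the share of all genes, and beyond 5 Mb, 7 of 30 (23.3%) and 7 of 28 (25%). With classes at 1 and 4 Mb, 6 of 13 genes (46.2%) passed under 1 Mb in each subset, 15.4% between 1 and 4 Mb in each, which is below the share of all genes in CD8+ cells, and 25.8% and 23.3% beyond. The difference between the classes was not tested, and the classes were counted only in edgeR's fit without a replicate term. Of the calls under 1 Mb, those of Dtymk and Ppp1r7 in CD4+ and of Pask in CD8+ cells were lost under most alternatives. The size of the log2 fold change correlated with distance at rho = 0.09 over 70 genes in CD4+ and 0.06 over 69 genes in CD8+ cells, a description across genes of the same libraries. Direction differed between the classes: of the called genes under 2 Mb, 5 rose and 2 fell in each subset, while beyond 5 Mb, 0 rose and 7 fell in CD4+ and 1 rose and 6 fell in CD8+ cells, a split that was not tested. On the higher side of Pdcd1, St8sia4 passed in both subsets, 1 of 6 genes tested in CD4+ and 1 of 7 in CD8+ cells. Fam174a, 1.26 Mb away on that side, had a log2 fold change of -0.55 ± 0.3 (adjusted p = 0.264, edgeR) in CD4+ and -0.31 ± 0.23 (adjusted p = 0.385) in CD8+ cells. In CD4+ cells Fam174a passed under 1 of 12 alternatives, with log2 fold changes of -0.84 to -0.26 over all of them. D1Ertd622e, at 3.59 Mb, had 0.32 ± 0.25 (adjusted p = 0.438, edgeR) and -0.27 ± 0.16 (adjusted p = 0.269).

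**Figure D2:**
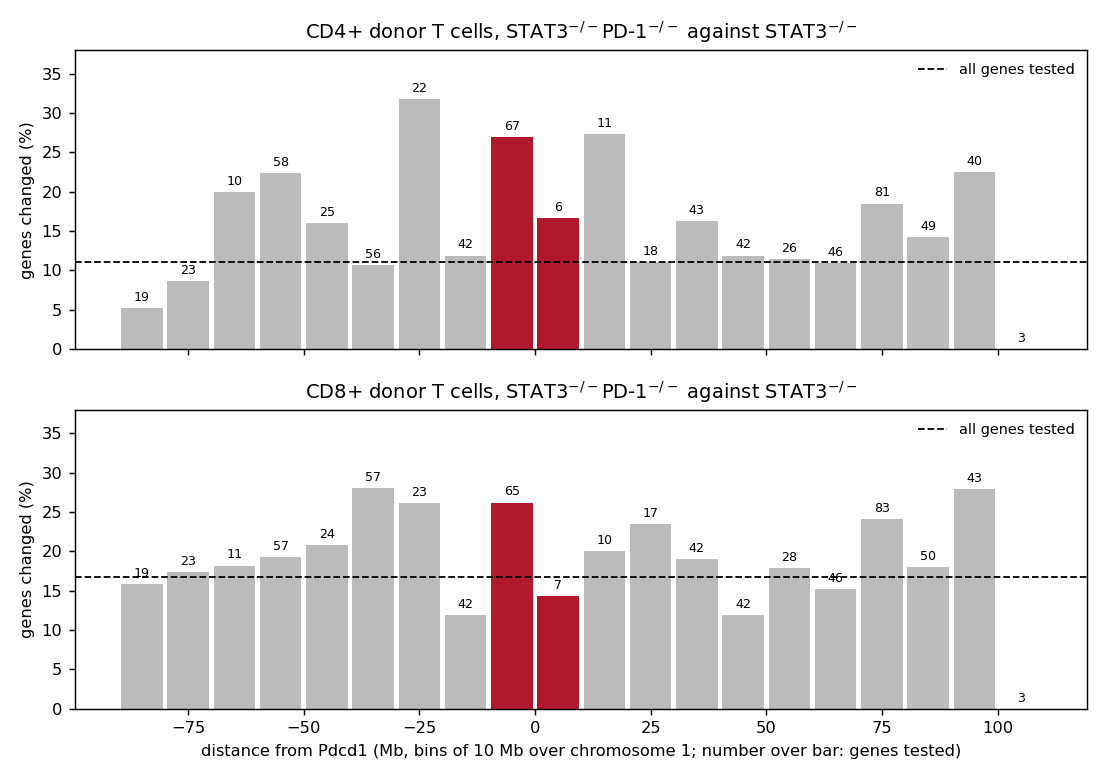
Percent of tested genes past the adjusted p threshold of 0.05 in bins of 10 Mb over chromosome 1, by distance from Pdcd1, for STAT3-/-PD-1-/- against STAT3-/- in CD4+ (above) and CD8+ cells (below). Red bars are the bins on either side of Pdcd1, without Pdcd1 itself, numbers give genes tested, the dashed line is the share over all genes (11.1% and 16.8%), and grey bins elsewhere reach 31.8% and 28.1%.

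Along chromosome 1 in bins of 10 Mb, the bin below Pdcd1 stood at 26.9% of 67 genes in CD4+ cells and 26.2% of 65 in CD8+ cells, without Pdcd1 and with the genes set aside by name counted in. The highest bin in CD4+ cells lay 20 to 30 Mb below Pdcd1, with 31.8% of 22 genes, and that in CD8+ cells 30 to 40 Mb below, with 28.1% of 57. The bin above Pdcd1 held few genes, of which 1 of 6 (16.7%) passed in CD4+ and 1 of 7 (14.3%) in CD8+ cells, the latter below the share of all genes. The lower flank was above the share of all genes and within the range of other bins of the chromosome.

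Gpr55, Arl4c and St8sia4, which were expressed well above Rbm44, Ramp1 and Ano7 per kilobase, were all lower. Gpr55 (chr1:85939537-85961055, 8.08 Mb from Pdcd1), a G protein-coupled receptor for lysophosphatidylinositol, was at 134.6 and 126.7 CPM in CD4+ WT, 118.2 and 111.4 in STAT3-/- and 47.41 and 28.12 in STAT3-/-PD-1-/- libraries. In CD8+ cells Gpr55 was at 131.3 and 132.7 CPM in WT, 116 and 151.2 in STAT3-/- and 34.31 and 19.55 in STAT3-/-PD-1-/- libraries. The WT and STAT3-/- levels overlapped in CD8+ cells, and those of STAT3-/-PD-1-/- lay well below both. The log2 fold change of Gpr55 against STAT3-/- was -1.6 ± 0.24 (SE, adjusted p = 0.012, edgeR) in CD4+ and -2.31 ± 0.27 (adjusted p = 0.00469) in CD8+ cells.

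Arl4c (chr1:88698226-88702191, 5.34 Mb), a small GTPase of the ARF family, was at 454.5 and 448.1 CPM in CD4+ WT, 288.5 and 312.9 in STAT3-/- and 98.8 and 79.82 in STAT3-/-PD-1-/- libraries. Its CD8+ levels were 272.4 and 253.6 CPM in WT, 193.2 and 234.1 in STAT3-/- and 62.04 and 49.58 in STAT3-/-PD-1-/- libraries. No group overlapped another in either subset. Against STAT3-/-, Arl4c changed by -1.75 ± 0.16 (log2, SE, adjusted p = 0.00374, edgeR) and -1.94 ± 0.16 (adjusted p = 0.00224), and against WT by -2.34 ± 0.16 (adjusted p = 0.00108) and -2.24 ± 0.16 (adjusted p = 0.00155). St8sia4 (chr1:95587682-95667594, 1.54 Mb on the higher side), a polysialyltransferase, was at 113.3 and 82.66 CPM in CD4+ WT, 177 and 121.8 in STAT3-/- and 47.54 and 29.77 in STAT3-/-PD-1-/- libraries. In CD8+ cells St8sia4 was at 84.1 and 93.71 CPM in WT, 93.28 and 113.8 in STAT3-/- and 42.69 and 21.79 in STAT3-/-PD-1-/- libraries. Its log2 fold change against STAT3-/- was -1.95 ± 0.29 (SE, adjusted p = 0.012, edgeR) in CD4+ and -1.68 ± 0.29 (adjusted p = 0.0137) in CD8+ cells.

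**Figure D3:**
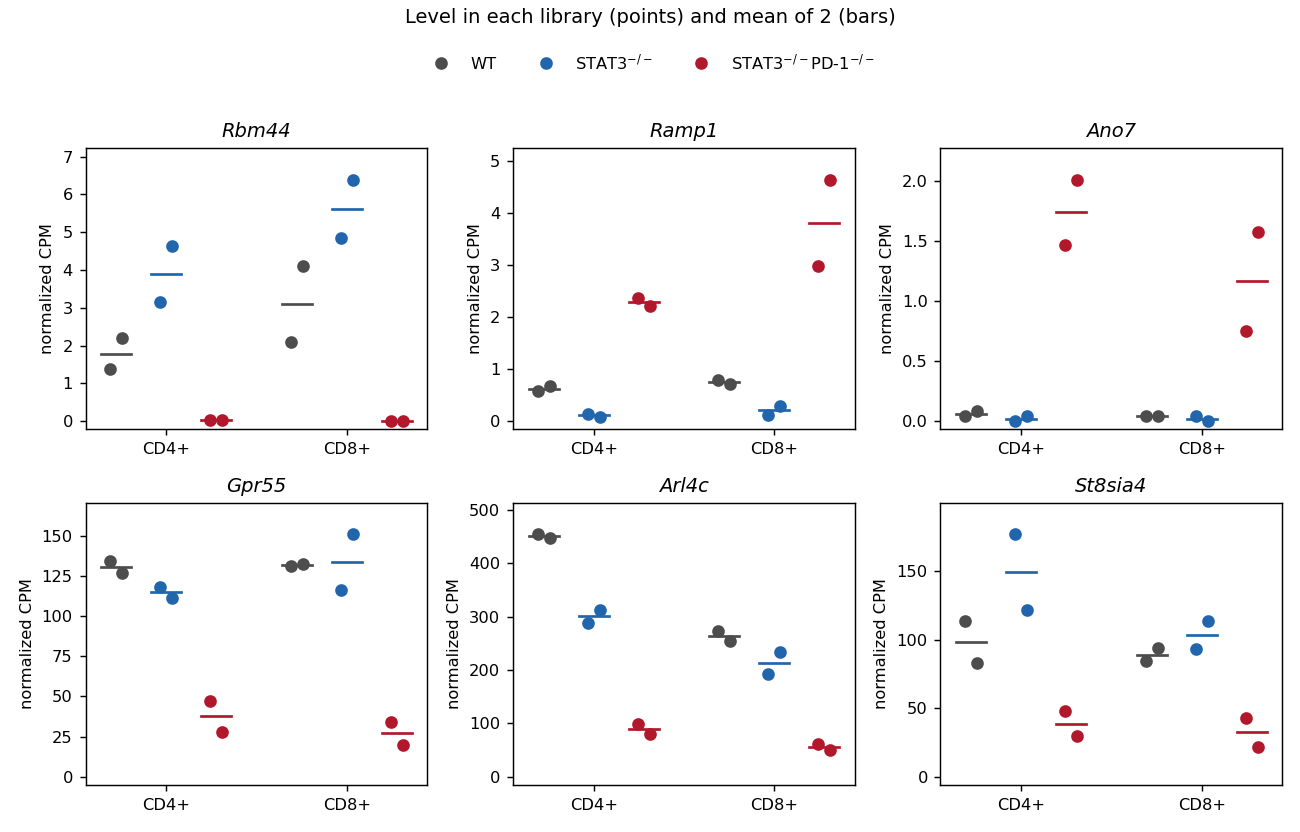
Normalized CPM of Rbm44, Ramp1, Ano7, Gpr55, Arl4c and St8sia4 in each library (points) with the mean of the pair (bars), by T cell subset and donor genotype. Rbm44 was near 0 and Ramp1 and Ano7 were highest in the STAT3-/-PD-1-/- libraries, and the other 3 genes were lowest there.

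By role, the SP100 family, interferon-inducible proteins of nuclear bodies, had 3 members with enough counts, and 2 fell in CD4+ and 3 in CD8+ cells, where 5.03% and 8.05% of all genes fell. Sp100 was at 402.4 and 385.8 CPM in CD4+ WT, 514.8 and 564.3 in STAT3-/- and 324.1 and 262 in STAT3-/-PD-1-/- libraries. Sp100 changed by -0.88 ± 0.15 (log2, SE, adjusted p = 0.0176, edgeR) in CD4+ and -1.21 ± 0.14 (adjusted p = 0.00454) in CD8+ cells, and Sp110 by -0.75 ± 0.15 (adjusted p = 0.0238) and -0.74 ± 0.12 (adjusted p = 0.0127). Sp140 fell in CD8+ cells by 0.69 on the log2 scale (SE 0.14, adjusted p = 0.0232, edgeR), and its CD4+ value was -0.39 ± 0.15 (adjusted p = 0.13). The family has near-identical copies and Sp110 overlaps Sp140 by 3189 bases on the opposite strand, so reads may be split among them and these 3 values are uncertain.

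Of 10 signal enzymes and small GTPase regulators, 2 rose (Pask and Ppp1r7) and 2 fell (Inpp5d and Arl4c) in each subset, where 11.1% of all genes passed in CD4+ and 16.8% in CD8+ cells. Inpp5d, the phosphatase SHIP1 that removes a phosphate from a product of phosphoinositide 3-kinase, was at 297.5 and 365.8 CPM in CD4+ STAT3-/- and 225.6 and 208.2 in STAT3-/-PD-1-/- libraries. It fell by 0.61 on the log2 scale in CD4+ (SE 0.16, adjusted p = 0.0488, edgeR) and in CD8+ cells (SE 0.12, adjusted p = 0.0182). The CD4+ call of Inpp5d was lost under 8 of 12 alternatives, with log2 fold changes of -0.76 to -0.46 and adjusted p up to 0.296. Of the receptors, Gpr55 fell and Ramp1 rose in both subsets. The third receptor, Nmur1, which binds neuromedin U, was tested in CD4+ cells only and had a log2 fold change of -0.77 ± 0.65 (adjusted p = 0.47, edgeR). The autophagy genes Atg16l1 and Atg4b did not pass in either subset, nor did any of 8 genes listed under protein turnover and the COP9 signalosome, a list that also holds Cab39, which is neither. Of that list, Trip12, an E3 ubiquitin ligase, had log2 fold changes of -0.27 ± 0.14 (adjusted p = 0.237, edgeR) in CD4+ and -0.23 ± 0.1 (adjusted p = 0.156) in CD8+ cells.

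Of 9 genes of chromatin, the cell cycle and nucleotide supply, Dtymk rose in both subsets and Ncl in CD8+ cells, where 6.05% of all genes rose in CD4+ and 8.76% in CD8+ cells. Ncl, nucleolin, had the highest level per kilobase of all 74 genes, with a mean of 153 CPM per kilobase. It was at 1287 and 999.5 CPM in CD8+ STAT3-/- and 1811 and 1853 in STAT3-/-PD-1-/- libraries, a rise of 0.68 ± 0.15 (log2, SE, adjusted p = 0.027, edgeR). Its CD4+ log2 fold change was 0.64 ± 0.17 (adjusted p = 0.0546, edgeR), just short of the threshold, and it passed under 7 of 12 alternatives (adjusted p of 0.013 to 0.306). Lrrfip1, a nucleic acid-binding protein also in that list and just below Rbm44 on the chromosome, had log2 fold changes of -0.04 ± 0.13 (adjusted p = 0.862, edgeR) and -0.31 ± 0.11 (adjusted p = 0.0959). Of 4 genes of RNA binding and decay, Hdlbp rose in both subsets and Ncl in CD8+ cells. Cab39, a scaffold of the kinase LKB1 with the second highest level per kilobase (132 CPM), had log2 fold changes of 0.11 ± 0.15 (adjusted p = 0.674, edgeR) and 0.1 ± 0.1 (adjusted p = 0.488).

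Scly, Pde6d, Sh3bp4 and Sag were the remaining called genes. Scly, selenocysteine lyase, fell by 0.8 on the log2 scale in CD4+ (SE 0.15, adjusted p = 0.0215, edgeR) and by 0.73 in CD8+ cells (SE 0.15, adjusted p = 0.023). In CD4+ cells Scly was at 33.77 and 31.2 CPM in WT, 45.68 and 45.28 in STAT3-/- and 27.1 and 25.27 in STAT3-/-PD-1-/- libraries. The STAT3-/- reference was thus above WT, and Scly did not pass against WT in either subset. Pde6d, a chaperone of prenylated proteins, was at 7.818 and 5.572 CPM in CD4+ WT, 11.5 and 11.16 in STAT3-/- and 5.143 and 3.214 in STAT3-/-PD-1-/- libraries. Against STAT3-/-, which was above WT here too, Pde6d fell by 1.44 on the log2 scale (SE 0.3, adjusted p = 0.0279, edgeR). Its CD8+ value was -1.11 ± 0.35 (adjusted p = 0.0668, edgeR). Sh3bp4, an endocytic adaptor, rose in CD4+ cells from 0.7884 and 1.201 CPM to 2.68 and 3.053 (log2 fold change 1.52 ± 0.39, SE, adjusted p = 0.0469, edgeR), and had 1.3 ± 0.4 (adjusted p = 0.0637) in CD8+ cells. The CD4+ WT libraries of Sh3bp4 were at 1.787 and 2.955 CPM, and its log2 fold change against WT was 0.27 ± 0.36 (adjusted p = 0.666, edgeR). The CD4+ call of Sh3bp4 against STAT3-/- was lost under 5 of 12 alternatives. Sag, the arrestin of photoreceptors, singled out after its values were seen, was at 0.8348 and 1.023 CPM in CD4+ STAT3-/- and at 0.2161 and 0.1607 in STAT3-/-PD-1-/- libraries.

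**Figure D4:**
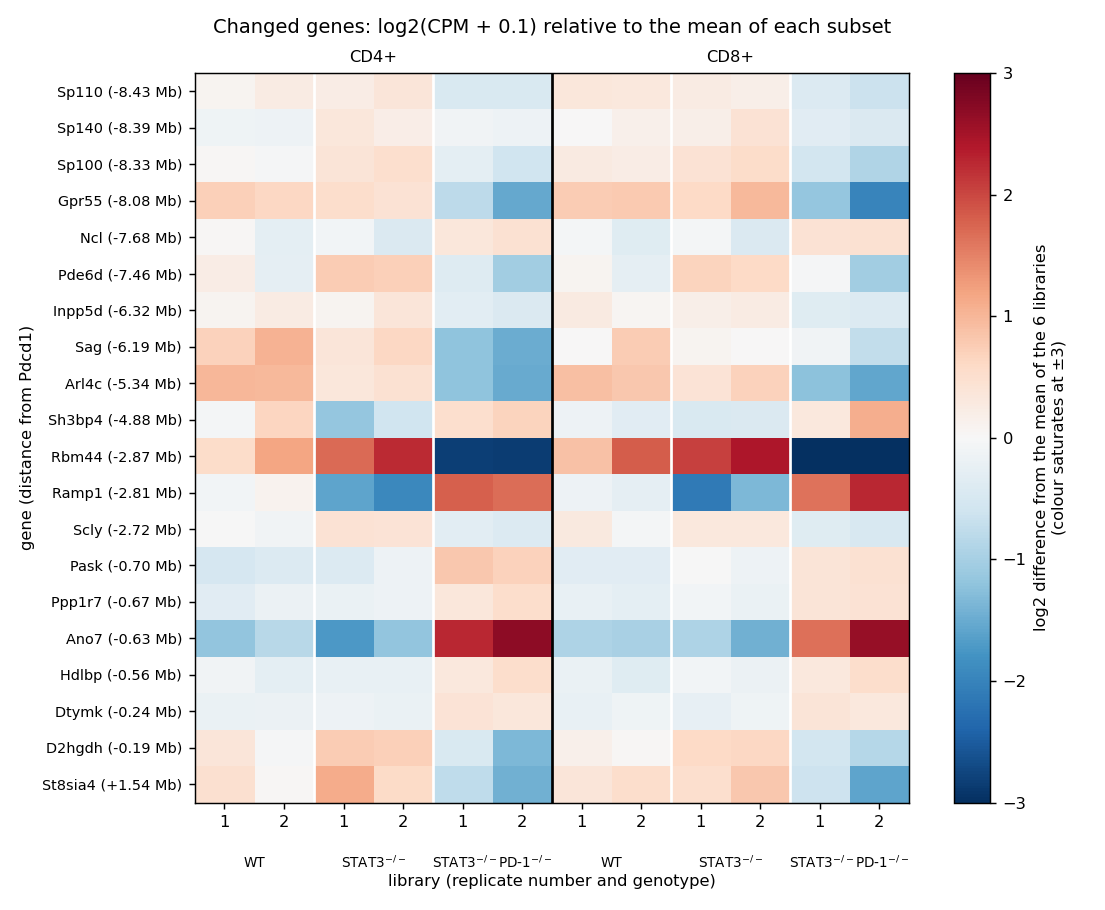
Level of the 20 genes called in either subset, in each of the 12 libraries, as log2(CPM + 0.1) relative to the mean of the 6 libraries of the subset, ordered by distance from Pdcd1 (colour saturates at 3 in either direction). The genes were chosen for this difference, so the contrast of the STAT3-/-PD-1-/- columns with STAT3-/- is built in; Rbm44 is darkest blue and Ramp1 and Ano7 are red there in both subsets, while Sp140 and Sh3bp4 in CD4+ and Pde6d in CD8+ cells overlap WT.

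Set against WT, which differs in both genes, STAT3-/-PD-1-/- cells gave 15 flanking genes of 70 past the threshold in CD4+ cells (8 higher, 7 lower), or 21.4%, where 12.9% of all genes passed (7.21% higher, 5.65% lower). In CD8+ cells 20 of 69 passed (8 higher, 12 lower), or 29%, where 17.2% of all genes passed (9.01% higher, 8.21% lower). The excess over all genes depended on the model here too. With the replicate number as a block it was smaller in CD4+ cells, as the counts in the section on processing show. This comparison shares its STAT3-/-PD-1-/- libraries with the previous one, so the values stand side by side and are no second test. Ramp1, Pask, Ppp1r7, Ano7, Hdlbp and Dtymk were again higher and Sp110, Gpr55, Arl4c, Rbm44 and St8sia4 lower in both subsets. Other genes that fell in both subsets against STAT3-/- did not all pass against WT. Scly passed in neither subset, and Sp100, Inpp5d and D2hgdh did not pass in CD4+ cells. Genes past the threshold against WT and not against STAT3-/- were Nmur1 (lower), Ptma and Gin1 (both higher) in CD4+ cells. In CD8+ cells they were Fbxo36 (higher) and Dgkd, Ugt1a7c, Hdac4 and D1Ertd622e (lower). The median log2 fold change was -0.1 in CD4+ and -0.11 in CD8+ cells. Without STAT3-/-PD-1-/- replicate 1, 2 CD4+ and 11 CD8+ genes passed, without STAT3-/-PD-1-/- replicate 2, 1 and 2, without WT replicate 1, 6 and 12, and without WT replicate 2, 6 and 6. The shares of all genes called in those fits fell too, to 1.2% and 6.79%, 0.508% and 0.903%, 5.51% and 8.95%, and 4.7% and 5.49%, in the same order.

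The Stat3 deletion alone gave no call among the flanking genes in edgeR's fit without a replicate term. In STAT3-/- against WT, 0 of 70 genes passed in CD4+ cells and 0 of 69 in CD8+ cells with edgeR, where 0.334% and 0.0583% of all genes passed (40 and 7 genes). At an unadjusted p under 0.05 stood 14 and 6 flanking genes. DESeq2, which called a larger share of all genes than edgeR, called 1 flanking gene in CD4+ cells, Arl4c, with a log2 fold change of -0.6 (adjusted p = 0.0393), and 0 in CD8+ cells. With the replicate number as a block, edgeR called 2 genes in CD4+ cells, Gpc1 (log2 fold change -0.64, adjusted p = 0.0389) and St8sia4 (0.6, adjusted p = 0.0425), and 0 in CD8+ cells. The shares of all genes passing with DESeq2 and with the block are given in the next paragraph, and the flanking counts lay near or below them. In edgeR's test Ramp1 had -2.41 ± 0.52 (log2, SE, adjusted p = 0.148) in CD4+ and -1.83 ± 0.53 (adjusted p = 0.301) in CD8+ cells, and Rbm44 had 1.12 ± 0.36 (adjusted p = 0.304) and 0.86 ± 0.39 (adjusted p = 0.504). For any 1 gene, exact permutation of the 2 and 2 libraries allows no p below 0.333 (two-sided).

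As a parallel, the genes within 10 Mb of Stat3 were read in the same comparison. In CD4+ cells 2 of 222 (0.901%) passed and in CD8+ cells 0 of 224 with edgeR (28 and 30 at an unadjusted p under 0.05), where 0.334% and 0.0583% of all genes passed. The counts depended on the model, as did the shares of all genes, given in brackets. With DESeq2 7 and 5 passed (2.27% and 1.72% of all genes), and with the replicate block 9 and 0 (2.53% and 0.075%). The looser count filter gave 5 and 3 (0.984% and 0.391%), and the 4 compared libraries alone gave 0 and 0 (0.00861% and 0%). Leaving out each library in turn gave 0 to 2 in CD4+ cells and 0 in CD8+ cells. The pair, named after their values were seen, were Fam20a, with a log2 fold change of -2 ± 0.2 (SE, adjusted p = 0.0237, edgeR), and Tanc2, which rose.

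Both STAT3-/-PD-1-/- libraries lay outside the range of the other 4 of their subset for 31 of the 70 flanking genes tested in CD4+ cells (14 above, 17 below), or 44.3%, where 42.8% of all genes did so. In CD8+ cells it was 37 of 69 (15 above, 22 below), or 53.6%, where 46% of all genes did so. The shares near Pdcd1 were thus close to those of all genes by this count, which takes no account of size.

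Markers of the sorted cells were read beside these results. The summed level of 8 T cell genes, of which none was at 0, was 5030 to 5340 CPM in the CD4+ WT and STAT3-/- libraries and 4210 and 4060 in STAT3-/-PD-1-/- libraries. In CD8+ cells it was 5180 to 5920 in the former and 3690 and 3740 in the latter. The sums thus differed with the genotype, which was not tested and did not hold for each gene. Cd3e, at 608.7 and 592.9 CPM in CD4+ STAT3-/-PD-1-/- libraries, lay within the 523.9 to 733.2 CPM of the other CD4+ libraries. In bulk RNA fewer cells of a type and less RNA per cell cannot be told apart. Of 10 hepatocyte genes 9 were in the table and summed to at most 5.18 CPM in any library, led by Trf. The 4 erythroid genes were at 0 in every library. Of 3 liver endothelial genes, Pecam1, which T cells also express, made up nearly all of a sum of 166 to 195 CPM in CD4+ and 111 to 129 in CD8+ libraries. In CD4+ cells the sums of the B cell, myeloid and NK cell genes stayed at or under 2.41, 15.3 and 18.7 CPM. In CD8+ cells the sums of 5 B cell genes (10.8 to 14.7 against 6.12 and 5.38 CPM, nearly all Cd79b), 8 myeloid genes (27.4 to 35.6 against 17.4 and 19.4, led by Cd68) and 2 NK cell genes (29.1 to 56.7 against 23 and 11.4, nearly all Klrb1c) were also lower in STAT3-/-PD-1-/- libraries, and their part in the results was not tested. The macrophage genes C1qa, C1qb, Csf1r and Lyz2 gave 10 to 49 counts each in replicate 2 of WT and STAT3-/- in both subsets, 1 to 9 in replicate 2 of STAT3-/-PD-1-/- and 1 to 7 in every replicate 1 library, and their part was not tested either. Of 11 genes in the window that were listed as typical of hepatocytes, 1, Mroh2a, had enough counts to be kept and too few to be tested. The list did not hold Ugt1a7c, which was kept and tested.

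The genes could not all be read independently. Of the 74, 24 overlap another listed gene, 16 of them one on the opposite strand. The study's methods name a stranded library kit. Without the strand setting of the counting, how far reads of opposite strands were kept apart is not known. Pask overlaps Gm28535, at a mean of 5.5 counts, and small RNA genes lie within Ncl. Rbm44, Ramp1, Ano7, Gpr55, Arl4c, St8sia4 and D2hgdh overlap no other listed gene. In CD4+ cells 2810459M11Rik, Gm19582, Mroh2a and 1810006J02Rik had too few counts to be tested, and in CD8+ cells 2810459M11Rik, Nmur1, Efhd1, Scarna6 and Mroh2a.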

How the data were processed

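Reads were aligned by the authors with STAR (mm10) and counted per RefSeq gene with HTSeq-count. The deposited counts are whole numbers per gene and library, and the deposited RPKM values are reads scaled to gene length and library size. The study's methods name a stranded library kit, but the strand setting used in counting is not given in the sources used here. The flanking genes, gene lists and tests were chosen with earlier results of these data known. Each subset was fitted by edgeR 4.0.16 (limma 3.58.1, R 4.3.3) on the counts of its 6 libraries, with genotype as the term, TMM scaling and edgeR's filter (minimum count 10, minimum total 15), leaving 3 residual degrees of freedom, and p-values were adjusted by Benjamini-Hochberg over all genes. SE is the log2 fold change divided by the square root of F. The fit was tried on simulated counts, from which no value is reported here. Alternatives were DESeq2 1.42.0 and log2(RPKM + 1) with limma, other filters, 4 libraries only, a replicate block and leaving out each library. Named genes were those called in both subsets, those called in one whose mean log2 CPM reached 1, the nearest 3 on each side, the 5 of highest level and examples by role. Promoters came from RefSeq (GRCm38.p6). Figures used matplotlib. Every column of per-sample values belonged to a listed sample. Intervals and floors cover counting error only.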

Additional observations from a re-analysis of the deposited data

How the results depend on the processing

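Counts of called flanking genes stayed within 1.5 times the reported ones under DESeq2, the looser and the stricter count filter, the 4 libraries alone, the replicate block and log2(RPKM + 1), except in STAT3-/- against WT in CD4+ cells, where DESeq2 called 1 and the replicate block 2 (Gpc1 and St8sia4) in place of 0. The share of all genes called rose in those fits too. Requiring a log2 fold change of at least 1 left 11 in CD4+ and 8 in CD8+ cells for STAT3-/-PD-1-/- against STAT3-/- (6% and 6.62% of all genes), and 9 and 8 against WT (7.53% and 6.59%). Leaving out each library in turn gave 0 to 16 in CD4+ and 0 to 16 in CD8+ cells against STAT3-/-, and 1 to 17 and 2 to 16 against WT. The counts for STAT3-/- against WT and for the difference between subsets stayed at 0. Leaving out a STAT3-/-PD-1-/- library assumes that the lone one varies like the other groups, and calls over all genes fell with them. Around Stat3, the CD4+ count of 2 was 7 with DESeq2, 9 with the block, 5 with the looser filter, 1 with log2(RPKM + 1) (0.251% of all genes) and 0 with 4 libraries, and the CD8+ count of 0 was 5 with DESeq2 and 3 with the looser filter. The other shares of all genes are given with the genes around Stat3 above. Classes at 1 and 4 Mb gave 6 of 13 genes (46.2%) in the nearest class in place of 7 of 23 (30.4%), in each subset.

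The replicate block called 23 and 21 flanking genes against STAT3-/- (26% and 24.4% of all genes) and 22 and 25 against WT (26% and 24.7%), in CD4+ and CD8+ cells. Deviations of libraries with the same number correlated at 0.214 to 0.733 in CD4+ and 0.045 to 0.74 in CD8+ cells, with 2 numbers per group. The study names replicate experiments, and the labels' library numbers run in separate series, but no source ties a number to an experiment, so the fit without the block was kept and the blocked values stand beside the counts.

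Alternatives for single genes were tallied for STAT3-/-PD-1-/- against STAT3-/- only, and there none changed direction with a call. Of these values, 497 kept their side of the threshold, 104 lost it, 15 gained it and 0 reversed. The values of Pdcd1 and Nmur1, and those of the other comparisons, were not in this tally. The calls of Inpp5d, Dtymk and Ppp1r7 in CD4+ cells (8, 8 and 7 of 12 alternatives) and of Pask in CD8+ cells (9 of 12) were lost most often. Rbm44, Ramp1 and Ano7 rest on few reads, and groups of 2 were too small for an outlier test.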
